A study of Rattus norvegicus with 16 samples.

Results

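The genes described here encode the voltage-gated sodium channels (symbols beginning Scn and a digit) and the voltage-gated calcium channels with their auxiliary subunits (symbols beginning Cacna, Cacnb or Cacng). They were found by symbol among array probe sets that the platform annotation assigned to 1 gene. Where a gene had several probe sets, the brightest by mean log2 signal over all arrays stood for it. This gave 36 genes (12 sodium channel and 24 calcium channel genes) of 14217 named genes.

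The arrays measured RNA from the diencephalon, the brain region of thalamus and hypothalamus, of 16 male Sprague-Dawley rats that began the diets at 5 weeks of age, with 1 array per rat and 4 arrays per group. Zinc-deficient rats (ZD) ate freely from a diet with 0.6 mg zinc per kg for 10 days, and their controls (PF) were pair-fed a diet with 30 mg zinc per kg for the same 10 days. Recovered rats (ZR) had 10 days of the deficient diet and then 6 days of 13 g of control diet daily, and their controls (ZRPF) had 10 days of pair-feeding and then the same 6 days of ration. All rats were offered 300 mM NaCl in a preference test, and the submitters chose for the arrays rats near their group average in body weight, zinc level and salt preference, after removing some recovery-experiment rats by their preference. ZD and ZR rats therefore differ in time and in experiment as well as in zinc supply.

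Voltage-gated sodium channels open on depolarization and carry the upstroke of the action potential. Their large alpha subunit forms the pore, and small beta subunits set its gating and its place in the membrane. Voltage-gated calcium channels turn depolarization into calcium entry. L-type channels signal to the cell body and nucleus, P/Q- and N-type channels trigger transmitter release, and T-type channels open near rest and drive the burst firing for which thalamic relay neurons are known. The alpha2delta and beta subunits bring calcium channels to the surface, while most of the gamma family serves AMPA-type glutamate receptors in brain. In sodium balance the atypical alpha subunit Scn7a has a role of its own, as a sensor of extracellular sodium in glia of the organs that border the brain ventricles.

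Signals are linear MAS5 units, in which probe sets with a mean log2 signal of at least 7.35 (a signal of 163) over the 16 arrays were tested. Of the 36 genes, 21 were tested, 8 of the sodium channel and 13 of the calcium channel family. The other 15 were too dim. Among them were Scn8a, the alpha subunit of mature axon initial segments and nodes, at 46.3 to 103 with a median of 65.6, and Cacnb4, a beta subunit of P/Q-type channels, at 78.0 to 148 with a median of 98.3. The T-type subunit Cacna1i ranged over 13.0 to 67.4 and the R-type subunit Cacna1e over 6.11 to 60.9. These dim signals do not show that the transcripts were absent, since probe sets differ in how well they bind.

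The remaining dim genes were mostly ones known for other tissues. Scn10a and Scn11a, alpha subunits of sensory ganglia, ranged over 6.78 to 61.0 and 39.9 to 107. The muscle genes Scn4a, Cacna1s and Cacng1 reached at most 31.2, 8.26 and 17.3, and Cacna1f, the L-type subunit of photoreceptors, reached at most 29.5. Among the other gamma genes, Cacng4 ranged over 70.8 to 147, Cacng5 over 18.8 to 63.1, Cacng6 over 16.3 to 69.9, Cacng7 over 3.82 to 67.4 and Cacng8 over 3.46 to 40.2.

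**Figure D1:**
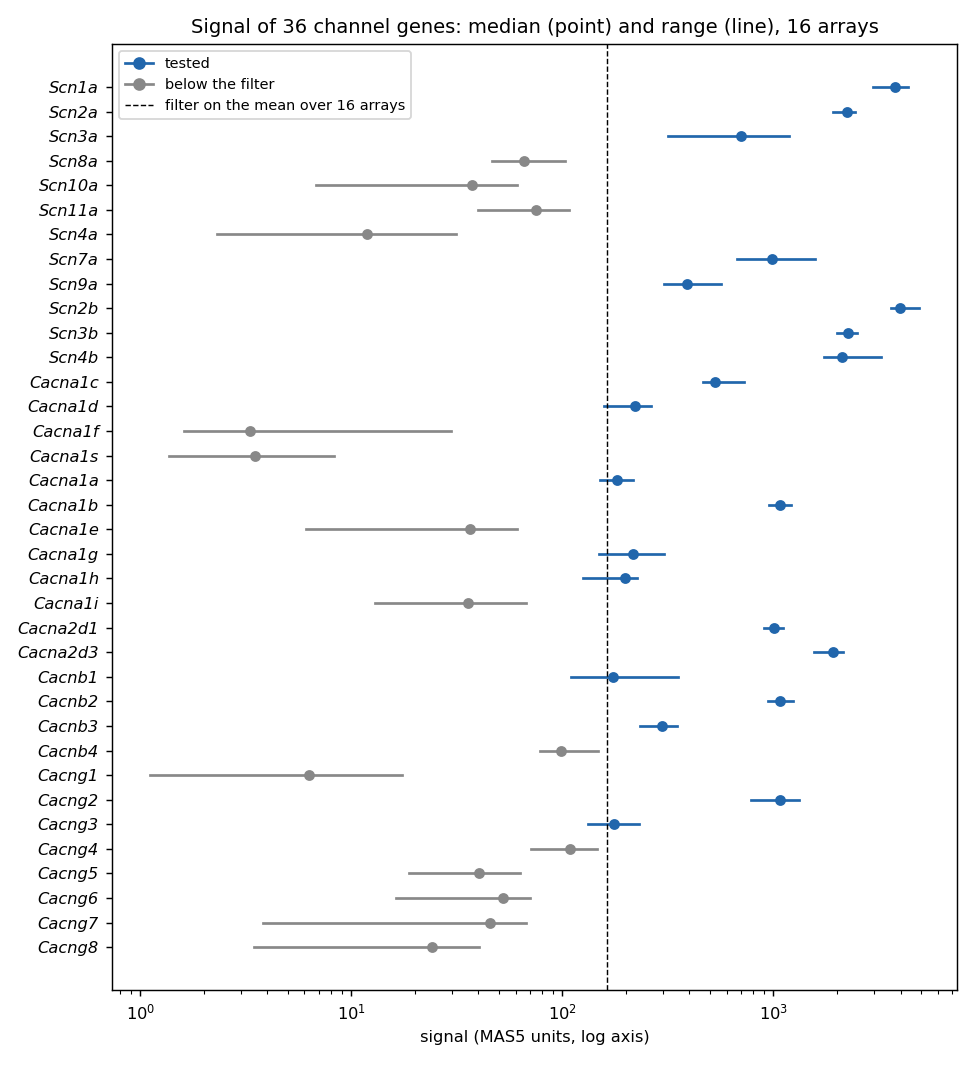
Signal of each of the 36 channel genes on a log axis in MAS5 units, with the median as a point and the range over 16 arrays as a line. The 21 tested genes and the 15 below the filter are coloured apart, and points of different genes are different probe sets and are not comparable in height.

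Zinc deficiency was compared with pair-feeding in the ZD and PF rats. No channel gene passed the test, and no channel gene had ZD and PF arrays without overlap. The smallest adjusted p among the 21 was 0.615 (limma), and over all probe sets 0.00% passed. At an unadjusted p under 0.05 the count was 1 of 21 channel genes, against 7.86% of all probe sets, and groups without overlap were found in 4.35% of all genes tested. The median log2 change over the 21 was -0.03, against 0.01 over all probe sets. The 95% confidence interval of the log2 change lay within 0.5 of zero on both sides for 20 of the 21 genes. The exception was Scn7a, with a lower limit of -0.74.

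That sodium sensor gene had the smallest p of the family. Scn7a (probe set 1370973_at) had signals of 669.6, 713, 933 and 673 in ZD rats, against 1011, 989, 1130.5 and 758 in PF rats. The 3 lowest ZD arrays lay below every PF array, while the remaining ZD array lay above the lowest PF array. The log2 difference was -0.38 ± 0.17 (SE), with an unadjusted p of 0.0427 and an adjusted p of 0.615 (limma), so the difference did not pass.

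Cacna2d1 encodes an alpha2delta subunit, the binding site of gabapentin. Its signals were 952, 1041, 1015 and 907 in ZD rats, against 1107, 1109, 1067 and 1034 in PF rats, with 1 ZD array inside the PF range and the others below it (-0.14 ± 0.07 log2, adjusted p = 0.634, limma). Cacnb3, a beta subunit that assembles with N-type channels, had 294, 286, 283 and 324 in ZD rats, against 241, 232, 289 and 287 in PF rats. These overlapped (0.18 ± 0.10 log2, adjusted p = 0.681, limma). Cacna1d, an L-type pore subunit that opens at relatively negative voltages, had 212, 157, 233 and 199 in ZD rats, against 218, 255, 221 and 234 in PF rats, overlapping as well (-0.22 ± 0.13 log2, adjusted p = 0.701, limma).

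The other genes differed between ZD and PF rats by -0.14 to 0.17 on the log2 scale. Cacna1h, the T-type subunit whose current is known to be sensitive to block by zinc ions, averaged 205 ± 10.9 in ZD rats and 185 ± 22.2 in PF rats (SD, n = 4 each), a log2 difference of 0.15 ± 0.16. Cacna1g, the T-type subunit of thalamic relay neurons, differed by -0.14 ± 0.10. The brain alpha subunits Scn1a, Scn2a and Scn3a differed by -0.11 ± 0.10, -0.05 ± 0.09 and 0.03 ± 0.13. None of these passed.

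Recovery was compared with its own pair-fed group in the ZR and ZRPF rats, after 6 days in which both groups ate the same ration. No channel gene passed here either, with 0.00644% of all probe sets (1 probe set) past the threshold. The smallest adjusted p was 0.927 (limma), and 0 of 21 had an unadjusted p under 0.05, against 5.21% of all probe sets. The median log2 change was 0.05, against -0.01 over all probe sets. For 20 of the 21 genes the 95% interval lay within 0.5 of zero, the exception being Scn9a, whose upper limit rounds to 0.501.

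ZR and ZRPF arrays did not overlap for 2 of the 21 genes, both higher in ZR rats, against 2.82% of all genes tested in either direction and 1.20% higher. Cacnb3 had 334, 337, 347 and 341 in ZR rats, against 322, 275, 325 and 297 in ZRPF rats, and every ZR array was above every ZRPF array. The log2 difference of 0.16 ± 0.10 had an adjusted p of 0.927 (limma). Scn3a (1369691_at), a brain sodium channel alpha subunit known for its high level in the embryonic and newborn rat brain, had 1078, 1184, 1073 and 1063 in ZR rats, against 976, 989, 863 and 1017 in ZRPF rats. Again all ZR arrays were higher. The log2 difference was 0.20 ± 0.13, with an adjusted p of 0.94 (limma).

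Cacna1b, the pore subunit of N-type channels, had 1199.6, 1098, 1214 and 1217 in ZR rats, against 1003, 1164, 1197 and 1053 in ZRPF rats. Only ZR array 10 fell inside the ZRPF range (0.10 ± 0.07 log2, adjusted p = 0.945, limma). Cacng3, an auxiliary subunit of AMPA receptors, had 187, 176, 201 and 224 in ZR rats, against 215, 206, 224 and 231 in ZRPF rats, where 3 ZR arrays were below the ZRPF range (-0.16 ± 0.12 log2, adjusted p = 0.945, limma). Scn7a differed by 0.05 ± 0.17. The ZRPF arrays spread widely for this gene, at 1040.3, 943, 732 and 1571.

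Whether the zinc difference itself was unequal in the recovery and the deficiency experiments was tested as an interaction. No channel gene passed (0.00% of all probe sets did), and the smallest adjusted p was 0.756 (limma). No channel gene had an unadjusted p under 0.05, against 6.60% of all probe sets. Cacna1b had an interaction of 0.19 ± 0.10 and Scn7a of 0.43 ± 0.25 on the log2 scale, each with an adjusted p of 0.756 (limma).

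Scn1a, the alpha subunit on which fast-spiking interneurons rely, came next in order of p. It had 3590.1, 4089, 3338 and 3922 in ZR rats, against 3351, 4284, 3563 and 2952 in ZRPF rats. In the other experiment it had 3651, 3573, 4029.7 and 3933 in ZD rats, against 4188, 4345, 4311 and 3601 in PF rats. Groups overlapped in both experiments, and the interaction was 0.20 ± 0.14 (adjusted p = 0.789, limma). Cacna1c, the main L-type pore subunit of brain and heart, had an interaction of 0.16 ± 0.14 (adjusted p = 0.828, limma).

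**Figure D2:**
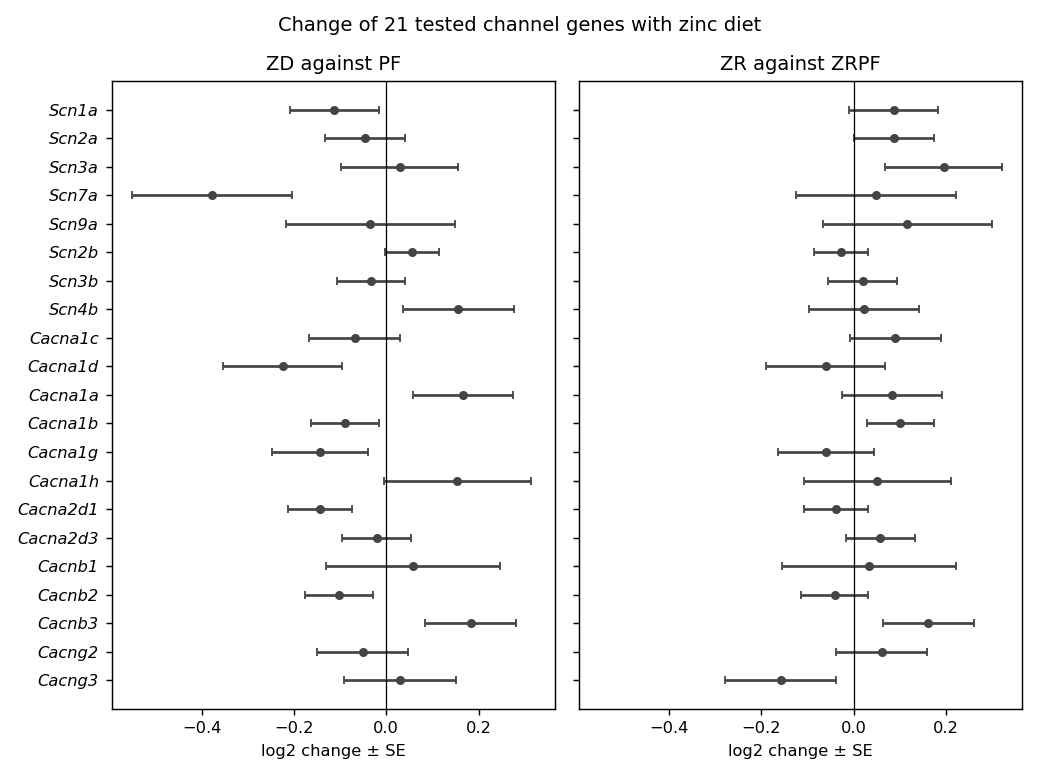
Log2 change with its standard error for the 21 tested channel genes in ZD against PF rats (left) and in ZR against ZRPF rats (right), 4 arrays a group. No gene passed the adjusted threshold in either panel, and the change furthest from zero was that of Scn7a at -0.38 in ZD against PF rats.

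The 16-day groups were set against the 10-day groups within the pair-fed rats (ZRPF against PF) and within the rats first made deficient (ZR against ZD). These comparisons share no array with each other, but each shares arrays with the zinc comparisons above. Time, age, ration and experiment cannot be told apart in either one, and zinc supply also differs in ZR against ZD. Of the 21 tested channel genes, 6 passed in ZRPF against PF (28.6%, against 15.7% of all probe sets) and 10 passed in ZR against ZD (47.6%, against 17.3%). In ZRPF against PF, 4 rose (9.50% of all probe sets did) and 2 fell (6.15%), a split that was 4 and 1 after quantile normalization and 4 and 5 after median centring. In ZR against ZD, 8 rose (9.16% of all probe sets) and 2 fell (8.18%), a split that was 6 and 2 after quantile normalization and 5 and 2 after median centring. The shares of all probe sets belong to the fit without these normalizations, so the splits after them cannot be read against those shares. Arrays of the groups did not overlap for 7 of the 21 genes in ZRPF against PF, against 21.5% of all genes tested, and for 11 in ZR against ZD, against 19.3%.

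Scn3a, Cacna1g, Cacng3 and Cacnb1 rose and Scn4b fell in both comparisons. These 5 genes are 23.8% of the 21, against 9.07% of all probe sets passing in both with the same sign. They are 5 of the 6 genes that passed in the pair-fed rats and 5 of the 10 that passed in the rats first made deficient. Cacnb1 and Cacng3 passed the filter on brightness only through their 16-day arrays, with mean log2 signals of 7.10 and 7.24 over the 10-day arrays and 7.86 and 7.70 over the 16-day arrays. The counts over tested genes therefore had to hold some difference. With no filter, 5 of all 36 channel genes (13.9%) passed in ZRPF against PF, against 7.92% of all probe sets. In ZR against ZD, 7 of 36 (19.4%) passed, against 8.31%. These shares are not like for like. Each channel gene was read from its brightest probe set, while all probe sets also hold dimmer probe sets of genes and probe sets without a gene name. A share over the brightest probe set of each gene was not taken without the filter, so the size of the gap cannot be read. In whole tissue, a change in the number of cells of a type and a change in RNA per cell cannot be told apart.

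Scn3a had the largest fold change and the smallest p of the family in both comparisons. Its signals were 976, 989, 863 and 1017 in ZRPF rats, against 487, 545, 506 and 318 in PF rats. In the rats first made deficient they were 1078, 1184, 1073 and 1063 in ZR rats, against 449, 478, 509.9 and 424 in ZD rats. The lowest 16-day array was above the highest 10-day array by a wide margin in both pairs of groups, and each group's arrays stayed close together apart from the low PF array 6. Scn3a rose 2.11-fold in ZRPF against PF rats (1.08 ± 0.13 log2, adjusted p = 1.78e-05, limma). It rose 2.37-fold in ZR against ZD rats (1.24 ± 0.13 log2, adjusted p = 3.68e-06, limma).

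The other tested brain alpha subunits did not pass in either comparison. Scn2a, the next protein-coding gene to Scn3a in the rat order of RefSeq (GRCr8), averaged 2119 ± 216 in ZRPF rats and 2229.6 ± 119 in PF rats, and 2245 ± 90.1 in ZR rats and 2170.5 ± 289 in ZD rats (SD, n = 4 each). Its log2 differences were -0.08 ± 0.09 and 0.06 ± 0.09 and did not pass. Scn1a lies further along, past the other genes Csrnp3, LOC134486369, Galnt3 and Ttc21b. It differed by -0.23 ± 0.10 in ZRPF against PF (adjusted p = 0.121, limma) and by -0.03 ± 0.10 in ZR against ZD. Directly after Scn1a comes Scn9a, known from sensory neurons, which differed by 0.11 ± 0.18 and 0.26 ± 0.18, and then Scn7a.

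Scn7a passed only in ZR against ZD, and the difference between the comparisons is the interaction already given, which did not pass. Its signals were 1106, 1105, 1089 and 971 in ZR rats, against 669.6, 713, 933 and 673 in ZD rats, so all ZR arrays were above all ZD arrays (0.53 ± 0.17 log2, adjusted p = 0.0437, limma). In the pair-fed rats the difference was 0.10 ± 0.17 log2 with overlapping arrays. Leaving out any 1 of 7 arrays ended the call in ZR against ZD, with log2 changes of 0.48 to 0.57 and adjusted p values of 0.0551 to 0.108 (limma). These were ZR arrays 7, 10, 13 and 15 and ZD arrays 2, 3 and 9. Median centring (0.50, adjusted p = 0.056), no filter (adjusted p = 0.0692) and a fit without the intensity trend (0.0585) ended it as well.

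Among the sodium channel beta subunits, Scn4b and Scn2b had lower signals at 16 days. Scn4b, the subunit tied to the resurgent sodium current of fast-firing neurons, had 1991, 1735, 1795 and 2038 in ZRPF rats, against 3225, 2466, 1956 and 2465 in PF rats. It had 1827, 1881, 2199 and 1782 in ZR rats, against 2375, 3182, 2866 and 2728 in ZD rats. The ZR and ZD arrays were apart, whereas PF array 4 fell among the ZRPF arrays. Scn4b fell by 0.40 on the log2 scale in ZRPF against PF (SE 0.12, adjusted p = 0.0298, limma) and by 0.53 in ZR against ZD (SE 0.12, adjusted p = 0.00512, limma).

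The ZRPF against PF call of Scn4b was lost without PF array 1 (-0.28, adjusted p = 0.107, limma), PF array 2 (-0.40, adjusted p = 0.061), PF array 6 (-0.40, adjusted p = 0.0546), ZRPF array 4 (-0.36, adjusted p = 0.0736) or ZRPF array 5 (-0.38, adjusted p = 0.0719). Scn2b, whose gene lies directly beside Scn4b in RefSeq's order, fell in ZR against ZD, with 3789.8 ± 125 in ZR rats and 4469 ± 286 in ZD rats (SD, n = 4 each), by 0.24 on the log2 scale (SE 0.06, adjusted p = 0.00916, limma). In ZRPF against PF it differed by -0.15 ± 0.06 with no overlap of arrays, and did not pass (adjusted p = 0.0801, limma). Scn3b, the beta subunit prominent in early brain development, differed by -0.07 and -0.02 with standard errors of 0.07 and did not pass.

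**Figure D3:**
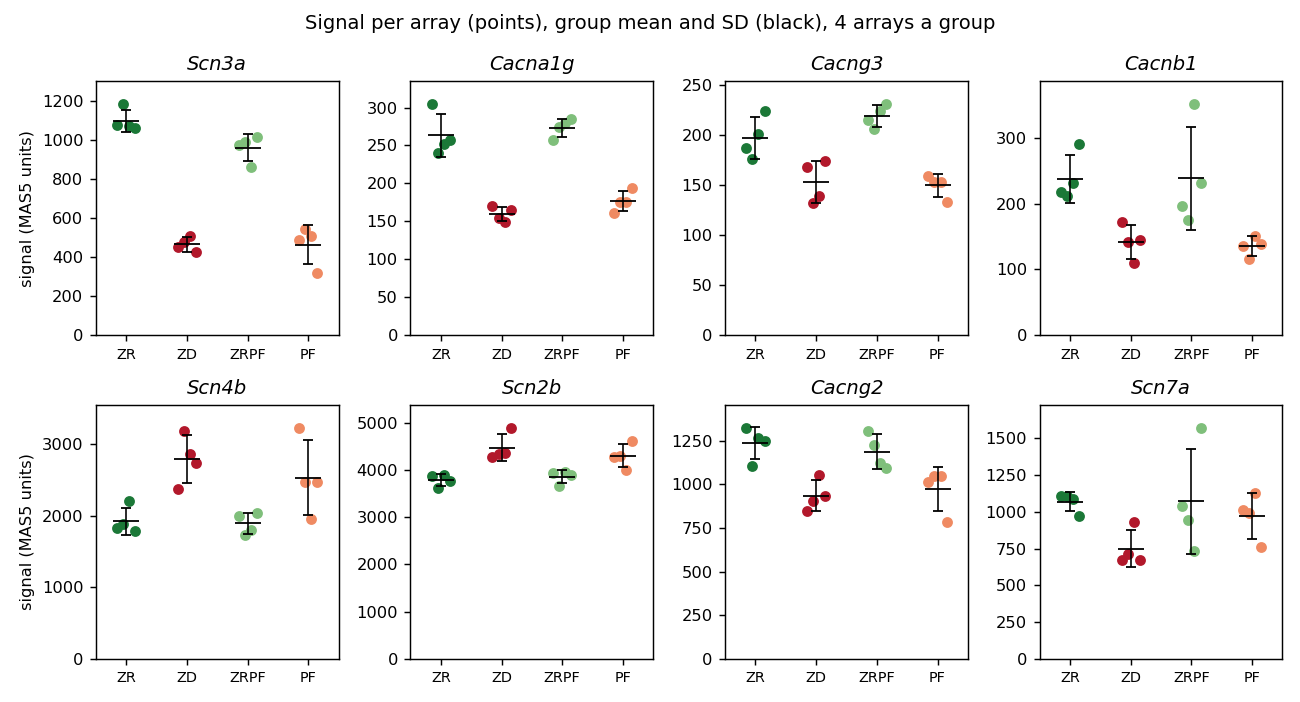
Signal in MAS5 units of 8 channel genes in every array (points), with group mean and SD in black, for ZR, ZD, ZRPF and PF rats. For Scn3a and Cacna1g the arrays of ZR and ZRPF rats lie above those of ZD and PF rats without overlap, and for Scn4b and Scn2b the means of ZR and ZRPF rats lie lower.

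Of the T-type subunits, Cacna1g rose and Cacna1h did not pass. Cacna1g (1370508_a_at) had 257, 274, 279 and 284 in ZRPF rats, against 161, 176, 175 and 194 in PF rats. It had 304, 239, 252 and 258 in ZR rats, against 169.7, 154, 149 and 165 in ZD rats. The groups were apart in both comparisons. The increase was 1.55-fold in ZRPF against PF (0.63 ± 0.10 log2, adjusted p = 0.000478, limma) and 1.65-fold in ZR against ZD (0.72 ± 0.10 log2, adjusted p = 0.000172, limma). Cacna1h differed by -0.03 ± 0.16 and -0.13 ± 0.16.

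Of the P/Q- and N-type pore subunits, Cacna1b rose in ZR against ZD and Cacna1a did not pass. Cacna1b rose 1.19-fold in ZR against ZD, with 1199.6, 1098, 1214 and 1217 in ZR rats, against 987, 1084, 956 and 951 in ZD rats (0.25 ± 0.07 log2, adjusted p = 0.0241, limma). The nearest ZR and ZD arrays were 1098 and 1084. Without ZD array 8 or 9, or ZR array 7, 13 or 15, the log2 change was 0.23 to 0.24 and did not pass, with adjusted p values of 0.0535 to 0.0606 (limma), nor with only the 8 arrays compared (adjusted p = 0.0538). In ZRPF against PF it differed by 0.06 ± 0.07. Cacna1a, the P/Q-type pore subunit, averaged 183 ± 9.10 in ZRPF rats and 165 ± 10.3 in PF rats, and 194 ± 15.6 in ZR rats and 185 ± 17.9 in ZD rats (SD, n = 4 each), with log2 differences of 0.15 and 0.07 that did not pass.

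Of the L-type subunits, Cacna1c rose in ZR against ZD and Cacna1d did not pass. Cacna1c had 725, 646, 548 and 547 in ZR rats, against 512, 461, 501 and 516 in ZD rats, a 1.23-fold difference without overlap (0.30 ± 0.10 log2, adjusted p = 0.0422, limma). In the pair-fed rats it had 568, 647, 503 and 592 in ZRPF rats, against 519, 512, 525 and 529 in PF rats, with overlap and a difference of 0.14 ± 0.10. Its call was lost without ZD array 2, 3, 8 or 9, or ZR array 7 or 10, with log2 changes of 0.22 to 0.32 and adjusted p values of 0.0588 to 0.147 (limma). It was also lost after quantile normalization (adjusted p = 0.0661), after median centring (0.0714), with no filter (0.0592) and with only the 8 arrays compared (0.092). Cacna1d differed by 0.01 ± 0.13 in ZRPF against PF and by 0.17 ± 0.13 in ZR against ZD.

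Among the auxiliary calcium channel subunits, Cacnb1, a beta subunit of skeletal muscle that brain also makes, rose by its brighter probe set (1387428_at). The signals were 197, 176, 352 and 231 in ZRPF rats, against 135, 115, 151 and 139 in PF rats. They were 218, 211, 231 and 291 in ZR rats, against 172, 142, 109 and 145 in ZD rats. Groups were apart in both comparisons, with 1 ZRPF array well above the rest. Cacnb1 rose 1.71-fold in ZRPF against PF (0.78 ± 0.19 log2, adjusted p = 0.00917, limma) and 1.68-fold in ZR against ZD (0.75 ± 0.19 log2, adjusted p = 0.0104, limma). Its other tested probe set (1378073_at) did not show this, at 0.17 ± 0.21 (adjusted p = 0.623, limma) and -0.15 ± 0.21 (adjusted p = 0.648), so the probe sets of Cacnb1 disagree.

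Cacnb3 differed by 0.22 ± 0.10 in ZRPF against PF (adjusted p = 0.141, limma) and by 0.20 ± 0.10 in ZR against ZD (adjusted p = 0.177), the ZR arrays all above the ZD arrays. Cacnb2, a beta subunit best known from the heart, differed by -0.09 and -0.03 with standard errors of 0.07. Its dimmer tested probe set differed by 0.06 ± 0.10 and by 0.28 ± 0.10 (adjusted p = 0.0647, limma), so its probe sets differ in sign, and neither passed. Of the alpha2delta subunits, Cacna2d3 fell in ZRPF against PF, with 1722 ± 134 in ZRPF rats and 2030.3 ± 52.0 in PF rats (SD, n = 4 each) and no overlap, by 0.24 on the log2 scale (SE 0.07, adjusted p = 0.0351, limma). In ZR against ZD it differed by -0.16 ± 0.07 (adjusted p = 0.144). Without PF array 1, 2 or 6, or ZRPF array 4 or 6, the ZRPF against PF change was -0.24 to -0.20 and did not pass, with adjusted p values of 0.0715 to 0.113 (limma). Nor did it pass after quantile normalization (-0.21, adjusted p = 0.0577), with no filter (0.0529) or without the intensity trend (0.0545). Cacna2d1 differed by -0.15 ± 0.07 and -0.04 ± 0.07.

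Both tested members of the gamma family serve AMPA receptors. Cacng3 had 215, 206, 224 and 231 in ZRPF rats, against 159, 154, 153 and 133 in PF rats, and 187, 176, 201 and 224 in ZR rats, against 168, 132, 139.6 and 175 in ZD rats. No arrays overlapped, although ZR array 10 and ZD array 9 were nearly level. Cacng3 rose 1.47-fold in ZRPF against PF (0.55 ± 0.12 log2, adjusted p = 0.00454, limma) and 1.29-fold in ZR against ZD (0.36 ± 0.12 log2, adjusted p = 0.0448, limma). The ZR against ZD call was lost without ZD array 3 or 8, or ZR array 7, 13 or 15, with log2 changes of 0.29 to 0.39 and adjusted p values of 0.0649 to 0.129 (limma). Quantile normalization (adjusted p = 0.0584), median centring (0.0659), no filter (0.089) and a fit of only the 8 arrays (0.114) ended it too.

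Cacng2 encodes stargazin, the first of these receptor partners to be described. It had 1323, 1106, 1268 and 1250.2 in ZR rats, against 844, 906, 1055 and 936 in ZD rats, without overlap, and rose 1.32-fold (0.40 ± 0.10 log2, adjusted p = 0.00872, limma). It had 1306, 1227, 1121 and 1091 in ZRPF rats, against 1011, 1047, 1048 and 784 in PF rats, also without overlap, but its change of 0.29 ± 0.10 did not pass (adjusted p = 0.0512, limma). A dimmer probe set of Cacng2 differed by 0.13 ± 0.13 in ZRPF against PF and by -0.11 ± 0.13 in ZR against ZD (adjusted p = 0.605, limma), so the probe sets disagree here too.

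**Figure D4:**
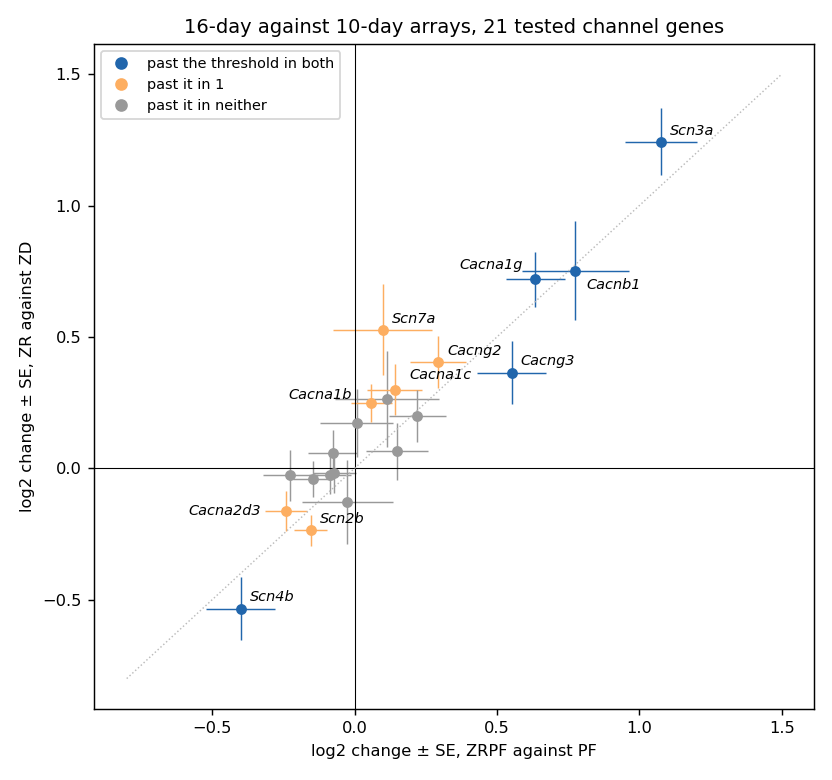
Log2 change with standard errors of the 21 tested channel genes in ZRPF against PF rats (horizontal) and in ZR against ZD rats (vertical), with equality as a dotted line. Scn3a lies furthest out at 1.08 and 1.24, and Scn4b lowest on both axes at -0.40 and -0.53.

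Promoter sequence from RefSeq (GRCr8) was at hand for 26 of the 36 genes, and for 3 of the 5 genes that passed in both 16-day comparisons. The 250 bases before the start of each of these 3 are shown because the genes moved at the same time point and their upstream sequence can be compared. Capitals mark matches, on either strand, to the motifs searched: TTCAGCACC, which is the left part of the RE1 element bound by the neuronal gene repressor REST; its extension TTCAGCACCACGGACCTC, chosen after the sequence was seen; the GC box GGGCGG; the TATA box TATAAA; and CCAAT. Cacng3 lies at chr1:186632312-186632561 on the plus strand, Scn3a at chr3:70666199-70666448 on the minus strand and Scn4b at chr8:54343623-54343872 on the plus strand.
Cacng3: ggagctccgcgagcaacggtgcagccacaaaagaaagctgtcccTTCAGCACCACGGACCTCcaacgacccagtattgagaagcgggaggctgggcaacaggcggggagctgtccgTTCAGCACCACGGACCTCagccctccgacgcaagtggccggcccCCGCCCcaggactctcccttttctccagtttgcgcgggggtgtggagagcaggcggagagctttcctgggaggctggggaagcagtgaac
Scn3a: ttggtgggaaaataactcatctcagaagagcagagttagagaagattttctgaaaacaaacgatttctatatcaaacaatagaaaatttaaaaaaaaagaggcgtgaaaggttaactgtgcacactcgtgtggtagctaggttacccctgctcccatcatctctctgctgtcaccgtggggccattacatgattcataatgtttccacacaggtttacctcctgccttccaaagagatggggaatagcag
Scn4b: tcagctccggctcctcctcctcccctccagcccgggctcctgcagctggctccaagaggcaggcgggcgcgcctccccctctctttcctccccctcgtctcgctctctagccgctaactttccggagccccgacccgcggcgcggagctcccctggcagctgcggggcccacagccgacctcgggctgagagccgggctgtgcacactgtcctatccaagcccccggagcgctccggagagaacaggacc

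The Cacng3 window held the RE1 part in 2 copies, at 206 to 198 and at 134 to 126 bases before the start. Both copies continued to the extension of 18 letters, the longest run they share, which 1 of 33465 promoter windows held (0.00299%), that of Cacng3 itself. Since the extension was read from this window, that hit was certain beforehand and its share carries no weight. The shorter form, which the extension contains, occurred in 102 windows (0.305%). Among the 26 channel genes, Cacng3 was the only one with it. Cacng3 also held a GC box on the opposite strand, a motif found in 30.5% of all windows and in 12 of the 26 channel genes. The windows of Scn3a and Scn4b held none of these letters, where TATAAA was in 12.9% and CCAAT in 34% of all windows. In base composition the 3 windows were unlike, with 64.8% G and C for Cacng3, 41.6% for Scn3a and 71.6% for Scn4b, against a median of 51.2% over all windows. These matches describe the letters only.

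Genes that anchor, modulate or work beside these channels were counted from a list. Of 52 listed partner genes (ankyrins, adhesion molecules, fibroblast growth factor homologues, calmodulins, release-site proteins, pacemaker channels and calcium exporters), 33 were tested. None passed in ZD against PF or in ZR against ZRPF. The smallest p values there belonged to Rem2, a calcium channel inhibitor (0.28 ± 0.13 log2 in ZD against PF, adjusted p = 0.628, limma), and to Nfasc, an adhesion molecule of the axon initial segment (0.15 ± 0.07 in ZR against ZRPF, adjusted p = 0.927).

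In ZRPF against PF, 6 of the 33 partner genes rose, against 9.50% of all probe sets, and 2 fell, against 6.15%. Ncs1, a neuronal calcium sensor, rose by 0.36 ± 0.07 log2 (adjusted p = 0.00204, limma), and Fgf13, an intracellular sodium channel partner, fell by 0.30 (SE 0.06, adjusted p = 0.00427). Hcn2, a pacemaker channel of thalamic neurons, rose by 0.41 ± 0.11 (adjusted p = 0.0135), and Rimbp2, which ties calcium channels to release sites, rose by 0.20 ± 0.06 (adjusted p = 0.0296).

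In ZR against ZD, 5 of the 33 partner genes rose and none fell, against 9.16% of all probe sets higher and 8.18% lower. The sodium-calcium exchanger Slc8a3 rose by 0.79 ± 0.16 log2 (adjusted p = 0.00304, limma), Hcn2 by 0.46 ± 0.11 (adjusted p = 0.00668), Prkaca, a catalytic subunit of protein kinase A, by 0.52 ± 0.12 (adjusted p = 0.00679) and Ncs1 by 0.24 ± 0.07 (adjusted p = 0.0232).

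Array measures and brain-region markers moved with the 16-day groups. The summed signal of 4 hypothalamus markers was 15976 to 19356 in ZR and 16178.5 to 19720.7 in ZRPF rats, against 10612 to 11637 in ZD and 8474 to 12172 in PF rats. Otp was far below the filter, with mean signals of 4.54 in ZR and 2.71 in ZRPF rats, against 8.45 in ZD and 14.5 in PF rats. It added little to the sums and did not share their direction. Of the 3 markers tested, all rose in ZRPF against PF, and Nnat and Hap1 rose in ZR against ZD, while Nkx2-1 did not pass there (0.49 ± 0.18 log2, adjusted p = 0.0718, limma). None of the 6 thalamus markers passed in any comparison, and their sums overlapped, at 17138 to 22562 in ZR, 17935 to 20192 in ZRPF, 16568 to 19738 in ZD and 18904 to 20928 in PF rats. Choroid plexus markers spread widely within groups, with sums of 1582 to 22131 in ZR, 1896 to 24098 in ZRPF, 2357 to 12489 in ZD and 1445 to 2639 in PF rats, and none of 3 tested passed. Of 8 neuron markers tested, 5 had a positive change in ZRPF against PF, and the only one to pass was Nefm, which fell by 0.27 (SE 0.09, adjusted p = 0.0408, limma). Rbfox3 and Tubb3 were higher there without overlap of arrays, by 0.19 ± 0.07 and 0.26 ± 0.09, and did not pass (adjusted p = 0.0639 and 0.0571). No neuron marker passed in ZR against ZD.

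Markers of other cells moved as well. Of 5 astrocyte markers, S100b rose in ZRPF against PF (0.33 ± 0.08 log2, adjusted p = 0.00968, limma) and Gfap rose in ZR against ZD (0.41 ± 0.10, adjusted p = 0.00911), the other astrocyte markers differing by 0.11 to 0.29 in the first and 0.02 to 0.28 in the second comparison without passing. The astrocyte sums were 41371 to 51221 in ZR and 44012 to 55211 in ZRPF rats, against 38088 to 43879 in ZD and 39780.2 to 44766 in PF rats. Their part in the difference of Scn7a, a gene of glia, was not tested. Of 3 microglia markers tested, the receptor gene Csf1r rose in ZRPF against PF (0.56 ± 0.12, adjusted p = 0.0046, limma). The others did not pass there, Aif1 differing by 0.27 ± 0.13 (adjusted p = 0.156) and P2ry12 by -0.11 ± 0.14 (adjusted p = 0.636). In the same comparison, of 5 oligodendrocyte markers Mbp rose (0.30 ± 0.09) and Mag fell by 0.34 (SE 0.10). In ZR against ZD, 2 of 3 mural and meningeal markers fell, Tagln by 0.85 (SE 0.17, adjusted p = 0.00272, limma) and Col1a1 by 0.73 (SE 0.18, adjusted p = 0.0113). Tagln and Col1a1 were also higher in ZD than in PF rats without overlap of arrays, by 0.91 ± 0.17 and 0.52 ± 0.18. They did not pass there (adjusted p = 0.151 and 0.503, limma). Mgp was higher in ZD rats by 0.37 ± 0.15 with overlap (adjusted p = 0.563). In ZRPF against PF, Tagln and Col1a1 differed by 0.22 ± 0.17 and -0.10 ± 0.18. A cortex and hippocampus list, added after the data were seen, had 2 tested markers that went opposite ways in ZR against ZD. Lamp5 fell by 1.00 (SE 0.26, adjusted p = 0.0133, limma), while Slc17a7 was higher by 0.26 ± 0.15 and did not pass (adjusted p = 0.237). No endothelial, oligodendrocyte precursor, pituitary, skeletal muscle or striatum marker passed in ZRPF against PF or in ZR against ZD.

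The log2 ratio of the 3' to the 5' control probe sets of beta-actin, which reads how far labelled RNA extends from the 3' end, was 2.05 to 2.20 in ZR and 2.05 to 2.48 in ZRPF rats, against 1.37 to 1.67 in ZD and 1.49 to 1.73 in PF rats. For Gapdh the same ratio was smaller, at 0.201 to 0.289 in ZR, 0.146 to 0.300 in ZRPF, 0.0476 to 0.154 in ZD and 0.0953 to 0.141 in PF rats. The Gapdh ranges of ZRPF and ZD rats overlapped. A covariate was also made from the mean log2 signal of the 3 tested hypothalamus markers, without Otp. With it, the changes of Scn3a were 0.83 in ZRPF against PF and 1.04 in ZR against ZD and did not pass (adjusted p = 0.587 and 0.135, limma). With the actin ratio as a covariate they were 1.43 (adjusted p = 0.059) and 1.58 (adjusted p = 0.0313). The summed hypothalamus signal and the actin ratio each separate the 16-day from the 10-day arrays without overlap. The covariate was the mean of 3 markers and not this sum. Of these, Nnat and Hap1 had no overlap in ZRPF against PF or ZR against ZD, while Nkx2-1 overlapped in ZR against ZD. Markers, actin ratio and time point moved together, so such fits cannot tell them apart. The part of the markers and the actin ratio in the channel results was not tested further. The median signal per array was 156 to 172.

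**Figure D5:**
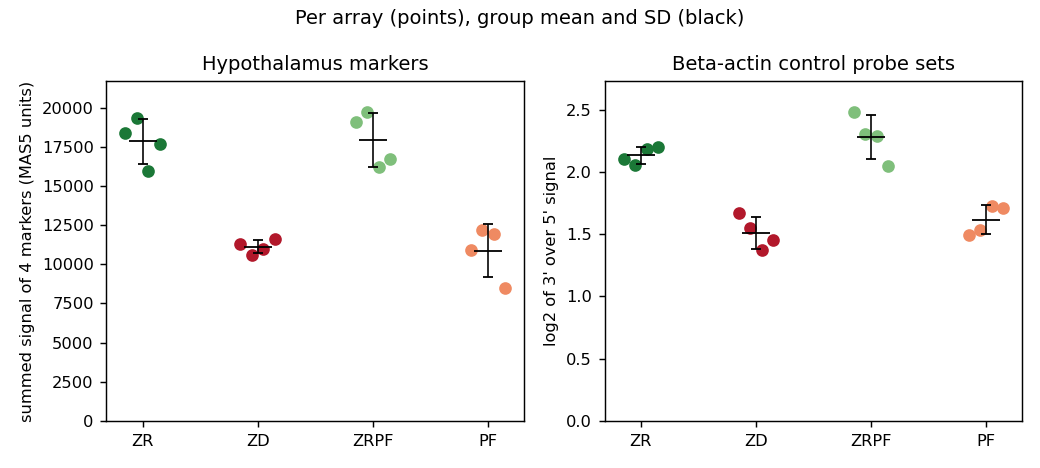
Summed signal of 4 hypothalamus markers in MAS5 units (left) and log2 ratio of 3' to 5' beta-actin control signals (right) in each array, with group mean and SD in black. On both axes the ZR and ZRPF arrays lie above the ZD and PF arrays. The marker Otp, far below the filter, adds little to the sum.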

How the data were processed

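Each of the 16 arrays measured total RNA of 1 rat's diencephalon, labelled with a kit primed at the 3' end of transcripts, per the labels' protocols. The authors deposited an intensity for each probe set in each array on a linear scale. Per the submitters' processing notes it came from MAS5 (release not stated in the labels). Values were used as log2 without further normalization. Gene names came from the platform annotation, in which 20826 probe sets had 1 gene, 436 several and 9780 none, and all 36 channel symbols were unchanged in a current rat gene table. Control probe sets (57) were set aside, and 15521 of 31042 probe sets were tested.

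A single limma fit (version 3.58.1, R 4.3.3; lmFit, then eBayes with an intensity trend) took in all 4 groups. Two-sided p values were adjusted over the 15521 probe sets (Benjamini-Hochberg) and read at a threshold of 0.05. Errors of changes are standard errors, and the 4 arrays of each group limit the precision. Each array was 1 rat, and no batch or scan date was given in the sources used here. Signals per array are given for up to 4 channel genes of smallest p in each comparison, and group means for a fixed set of others. The channel genes, partner genes and marker lists were chosen with earlier results of these data known. Rat numbers were not used as pairs.

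On simulated arrays for ZRPF against PF (15521 probe sets), 41 of 66 log2 changes of 0.5, 63 of 67 changes of 1 and 64 of 64 changes of 2 were recovered, with 9 false calls among 177. Alternatives were quantile normalization, centring of each array on its median, a stricter filter or none, a fit without the intensity trend, 32 added before the log, array weights, fits on only the arrays compared, leaving out each array, the next brightest probe set, a replicate block and, chosen after seeing the data, covariates for hypothalamus markers and the actin ratio.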

Additional observations from a re-analysis of the deposited data

Results flagged for a closer look

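In 6 of 84 groups of 4 arrays (21 genes, 4 groups), 1 array stood apart from its group by Dixon's test, where chance gives about 1 in 20. Scn3a was 1184 in ZR array 10, against 1063 to 1078 in the other ZR arrays. Cacna1b was 1098 in the same array, against 1199.6 to 1217. Scn7a was 971 in ZR array 15, against 1089 to 1106. Scn3b was 2478 in ZRPF array 5, against 2092 to 2134. Scn2b was 4894 in ZD array 9, against 4270.2 to 4369. Cacng2 was 784 in PF array 6, against 1011 to 1048.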

How the results depend on the processing

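No channel gene passed in ZD against PF or ZR against ZRPF under any of 17 alternatives each, or in the interaction under any of 24. Leaving out 1 array gave 4 to 7 channel genes past the threshold in ZRPF against PF, with 1685 to 2261 of 15521 probe sets past it, and 6 to 8 in ZR against ZD, with 2028 to 2591 probe sets. The 6 came without ZR array 7 (2062 probe sets). Covariates chosen after seeing the data gave, for the hypothalamus markers, 0 in ZRPF against PF and 0 in ZR against ZD, and for the actin ratio, 0 and 1 (Scn3a). Calls fell over the whole array under these covariates, to 2 and 56 probe sets with the hypothalamus markers and to 7 and 17 with the actin ratio, against 2430 and 2692 without a covariate. Changes that turned sign were Cacnb1 in ZRPF against PF with the hypothalamus covariate (-0.043 log2), Scn4b in ZRPF against PF with the actin covariate (0.011), and Cacng2 (-0.11) and Cacnb1 (-0.15) in ZR against ZD by their second probe set. The causes were not tested. PF and ZRPF rats shared the numbers 2, 4 and 6 without deviating together (correlations of 0.079, 0.020 and 0.035), and with these as a replicate block (6 arrays) 2 channel genes passed, Scn3a (1.16 log2) and Cacna1g (0.58), of 1085 probe sets. On the simulated arrays, with 4 a group, log2 changes of 0.5 were recovered only in part. That simulation gave 177 calls for ZRPF against PF, where the data gave 2430, so the recovered share need not hold for the data.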
